A study of Mus musculus with 10 samples.

Results

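The Cyp2b genes encode a subfamily of cytochrome P450 enzymes and include the classical phenobarbital-inducible P450 of mouse liver. They were followed here on 6 probe sets, the sets of short probes that read 1 transcript on an Affymetrix array, out of 45037 that are not array controls. The probe sets were taken by name: the platform annotation had to list Cyp2b10, Cyp2b9, Cyp2b13, Cyp2b19 or Cyp2b23 as the gene. Cyp2b10 had 3 probe sets, Cyp2b9, Cyp2b13 and Cyp2b19 had 1 each, and Cyp2b23 had none, so its expression is not analysed here and its promoter alone is described. They stand for 4 of the 5 genes in the rule, among 18193 genes that the array reads with a probe set of a single symbol. All 6 were kept with no filter on low values.

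Livers came from 10 male B6C3F1/Crl mice, the offspring of C57BL/6 males and C3H/He females, which were 29 to 32 days old when received and had 5 days to settle. In the phenobarbital group, 5 mice had 0.05% (w/v) phenobarbital in their drinking water for 28 days, and 5 control mice had none. RNA was extracted from whole liver, each animal has its own array, and the values are log2 expression levels, so a difference of 1 is a 2-fold difference. Fewer cells of a type and less RNA per cell cannot be told apart in whole liver.

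Cytochromes P450 are haem enzymes of the endoplasmic reticulum that oxidise drugs, steroids and fatty acids with electrons from NADPH. Phenobarbital raises Cyp2b transcription in hepatocytes through the constitutive androstane receptor (CAR, gene Nr1i3). CAR is held in the cytoplasm with HSP90, is released when phenobarbital blocks epidermal growth factor receptor signalling, and binds with the retinoid X receptor to a distal enhancer of the inducible genes. In adult mouse liver Cyp2b9 and Cyp2b13 are known as female-biased genes kept low in males by the male pattern of growth hormone, and Cyp2b19 is known from keratinocytes.

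The sequences just before the transcription starts are shown because Cyp2b9 and Cyp2b13, the members compared most closely in the results, are near copies of each other there, while Cyp2b10 and Cyp2b19 differ from them and from each other. Each is the 250 bases before the RefSeq start in GRCm38.p6, 5′ to 3′, except that the last 100 bases are given for Cyp2b19. They lie at chr7:25897408-25897657 for Cyp2b10, chr7:26173159-26173408 for Cyp2b9, chr7:26061245-26061494 for Cyp2b13 and chr7:26757042-26757141 for Cyp2b19, all on the plus strand. Capitals mark TTGCNNAA, CATAAAA and AGGTCA, searched on both strands, and no 2 of these matches overlap. The motifs were picked after the sequences had been read.
Cyp2b10: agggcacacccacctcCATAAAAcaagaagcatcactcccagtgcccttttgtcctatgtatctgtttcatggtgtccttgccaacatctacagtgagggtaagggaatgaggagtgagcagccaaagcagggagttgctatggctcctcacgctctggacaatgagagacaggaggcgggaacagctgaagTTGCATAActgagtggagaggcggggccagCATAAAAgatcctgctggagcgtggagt
Cyp2b9: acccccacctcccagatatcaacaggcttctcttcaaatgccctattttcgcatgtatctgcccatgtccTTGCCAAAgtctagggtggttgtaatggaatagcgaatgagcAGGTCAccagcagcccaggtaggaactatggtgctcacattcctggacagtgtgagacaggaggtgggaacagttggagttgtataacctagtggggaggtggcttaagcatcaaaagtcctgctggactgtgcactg
Cyp2b13: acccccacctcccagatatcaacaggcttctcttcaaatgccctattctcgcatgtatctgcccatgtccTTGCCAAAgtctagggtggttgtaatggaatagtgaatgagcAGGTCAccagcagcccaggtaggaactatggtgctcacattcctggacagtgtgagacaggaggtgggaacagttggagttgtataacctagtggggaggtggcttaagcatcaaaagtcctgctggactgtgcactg
Cyp2b19: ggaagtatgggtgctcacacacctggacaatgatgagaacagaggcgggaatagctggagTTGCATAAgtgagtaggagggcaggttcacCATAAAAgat

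The Cyp2b9 and Cyp2b13 windows were identical at 248 of 250 bases (99.2%), with no gap. Counted from 1 at the 5′ end of the window, the differences from Cyp2b9 to Cyp2b13 were T48C and C104T. Cyp2b10 was 70.0% identical to each of them over the aligned columns, 66.5% to Cyp2b19 and 62.8% to Cyp2b23. TTGCATAA and CATAAAA stood close together before the start in Cyp2b10, at 58 to 51 and 28 to 22 bases before it, and also in Cyp2b19 and Cyp2b23. Neither occurred in the last 100 bases of Cyp2b9 or Cyp2b13, whose match to TTGCNNAA lay farther up, at 180 to 173 bases. TTGCNNAA was found in 9.56% of 32851 RefSeq promoter windows of this length, CATAAAA in 3.77% and AGGTCA in 14%. Cyp2b10 held no AGGTCA in its window, and the other 4 members each held 1. These are matches of letters and not sites of a factor, and the distal enhancer is outside the windows.

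The arrays differed in ways that bear on every comparison. Bacterial poly-A RNAs added as labelling controls, read by 24 probe sets, averaged 5.76 to 6.58 on phenobarbital arrays, 6.40 on control replicate 4 and 7.77 to 8.64 on the other 4 controls. Spike-in controls of hybridisation averaged 10.54 to 10.74 on phenobarbital arrays, 10.65 on control replicate 4 and 10.95 to 11.30 on the other 4 controls. The 3′ minus 5′ difference of actin was 1.19 to 1.33, 1.28 and 1.46 to 1.78 in the same order. On these measures control replicate 4 lay within the range of the phenobarbital arrays. Upper quartiles were 7.30 to 7.35 on phenobarbital arrays and 7.38 to 7.45 on controls. The 3′ minus 5′ difference of Gapdh was -0.28 to -0.21 on phenobarbital arrays and -0.15 to -0.03 on controls. Changes are therefore also given within the low spike-in set, from a fit with the set as a block, in which 5 phenobarbital arrays are set against control replicate 4 alone. The p-values of that fit take their spread from the phenobarbital arrays and from the other 4 controls, so control replicate 4 is assumed to vary like them, and the set cannot be told apart from that animal. Hepatocyte markers averaged 14.55 to 14.60 on phenobarbital arrays and 14.62 to 14.64 on controls over 7 genes, with 1 of the 7 called lower and none below the lower quartile on all arrays. Of 4 cholangiocyte markers 1 was called higher, and they averaged 5.35 to 5.5 on phenobarbital arrays and 5.24 to 5.56 on controls. Keratinocyte markers averaged 5.20 to 5.35 on phenobarbital arrays and 5.15 to 5.26 on controls over 6 genes, with 1 of the 6 called higher and 1 below the lower quartile on all arrays. Of 4 stellate cell markers 3 were called lower, averaging 7.52 to 7.95 on phenobarbital arrays and 8.11 to 8.30 on controls. Of 5 endothelial markers 3 were called lower, averaging 7.97 to 8.41 on phenobarbital arrays and 8.22 to 8.75 on controls. Their part in the results was not tested.

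Cyp2b10, Cyp2b9 and Cyp2b13 were higher in phenobarbital livers than in controls, in that order of size. Cyp2b19 stayed at the bottom of the scale in both groups. Treatment and spike-in set largely coincided, so they cannot be fully told apart. By limma with Benjamini-Hochberg adjustment over all probe sets, 5 of the 6 Cyp2b probe sets were called higher (adjusted p under 0.05) and none lower. The background was 7.70% of all probe sets called higher and 18.7% called in either direction. All 5 were at least 2-fold higher, as were 0.260% of all probe sets. The phenobarbital and control values did not overlap in any of the 5, and 5.29% of all probe sets were higher without overlap. For Cyp2b13 the log2 change was 1.94, and 1.49 within the low spike-in set, where it did not pass. Within the low spike-in set, 4 of the 6 were called higher, against 0.269% of all probe sets.

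**Figure D1:**
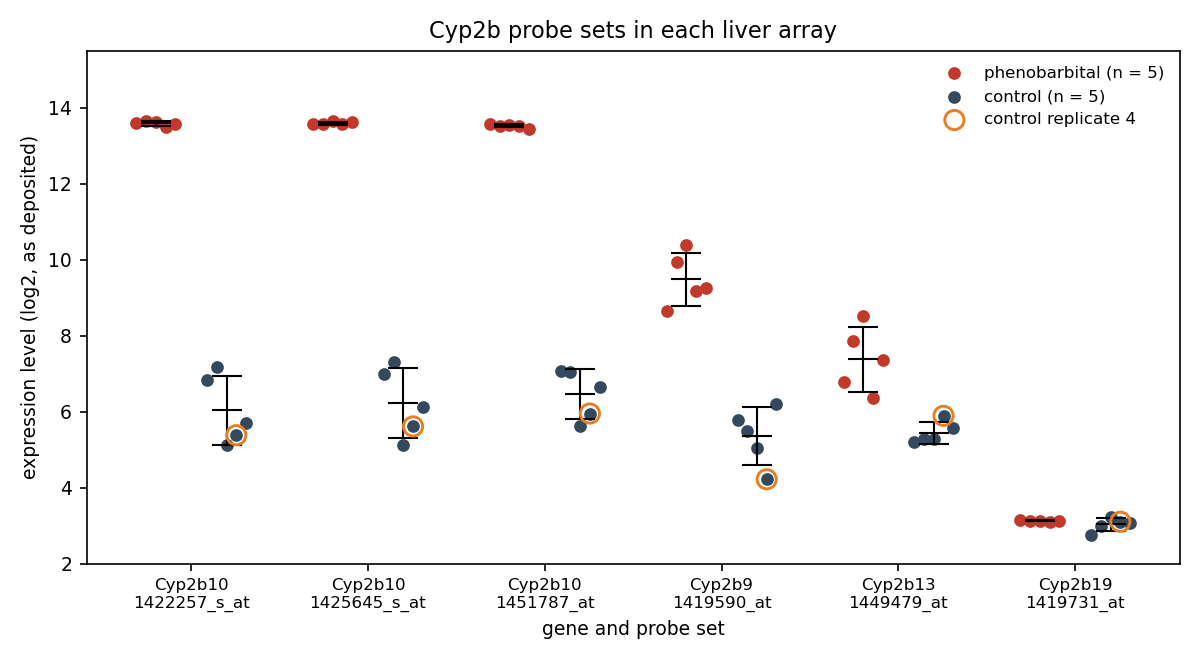
Deposited log2 level of the 6 Cyp2b probe sets on each array, phenobarbital (red, left of each pair) and control (dark, right), with bars for the mean and SD (n = 5 each) and a ring round control replicate 4. The 3 Cyp2b10 probe sets lie between 13.45 and 13.64 on phenobarbital arrays and between 5.11 and 7.31 on controls.

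Cyp2b10 encodes the main phenobarbital-inducible P450 of mouse liver, a counterpart of human CYP2B6. Probe set 1451787_at read 13.56, 13.53, 13.55, 13.52 and 13.45 in phenobarbital replicates 1 to 5, against 7.07, 7.05, 5.62, 5.95 and 6.65 in control replicates 1 to 5. Probe set 1422257_s_at read 13.61, 13.64, 13.63, 13.50 and 13.58 in phenobarbital livers, against 6.83, 7.18, 5.11, 5.38 and 5.70 in controls. Probe set 1425645_s_at read 13.58, 13.56, 13.64, 13.56 and 13.62 in phenobarbital livers, against 7.0, 7.31, 5.12, 5.61 and 6.13 in controls. All 3 probe sets placed control replicates 1 and 2 highest and control replicate 3 lowest, while the treated animals were nearly level. The lowest treated value stood 6.25 to 6.38 above the highest control, and 1451787_at averaged 13.52 ± 0.04 in phenobarbital livers and 6.47 ± 0.66 in controls (SD, n = 5 each).

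The log2 changes were 7.05 ± 0.24 (SE) for 1451787_at, 7.55 ± 0.33 for 1422257_s_at and 7.36 ± 0.33 for 1425645_s_at. As folds these were 133 (95% interval 93.0 to 190), 188 (115 to 307) and 164 (100 to 269), with limma adjusted p of 5.19e-09, 5.23e-08 and 6.8e-08. They were the 3 largest rises among the 45037 probe sets. Within the low spike-in set the log2 changes were 7.57, 8.21 and 7.98, all called (limma adjusted p between 2.66e-06 and 3.17e-05). The 3 probe sets read the same gene, and the suffix of 2 of them marks probes that can match related transcripts, so they are not independent readings. A match to the Cyp2b paralogs cannot be told apart from Cyp2b10 on those 2.

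The spread of Cyp2b10 was uneven between the groups. Its SD was 0.04 to 0.06 over the 3 probe sets in phenobarbital livers, against 0.66 to 0.92 in controls (n = 5 each). The median SD over all probe sets was 0.12 in phenobarbital arrays and 0.15 in control arrays. On the linear scale all treated values of the 3 probe sets lay within a 1.14-fold range, and all control values within a 4.59-fold range. In treated livers Cyp2b10 stood 1.47 to 1.66 below the highest value of its array. Whether its signal was still proportional to RNA there was not tested. Its control level lay above the lower quartile of every array, and below the array median on 2 arrays for 1422257_s_at, 1 for 1425645_s_at and 0 for 1451787_at.

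**Figure D2:**
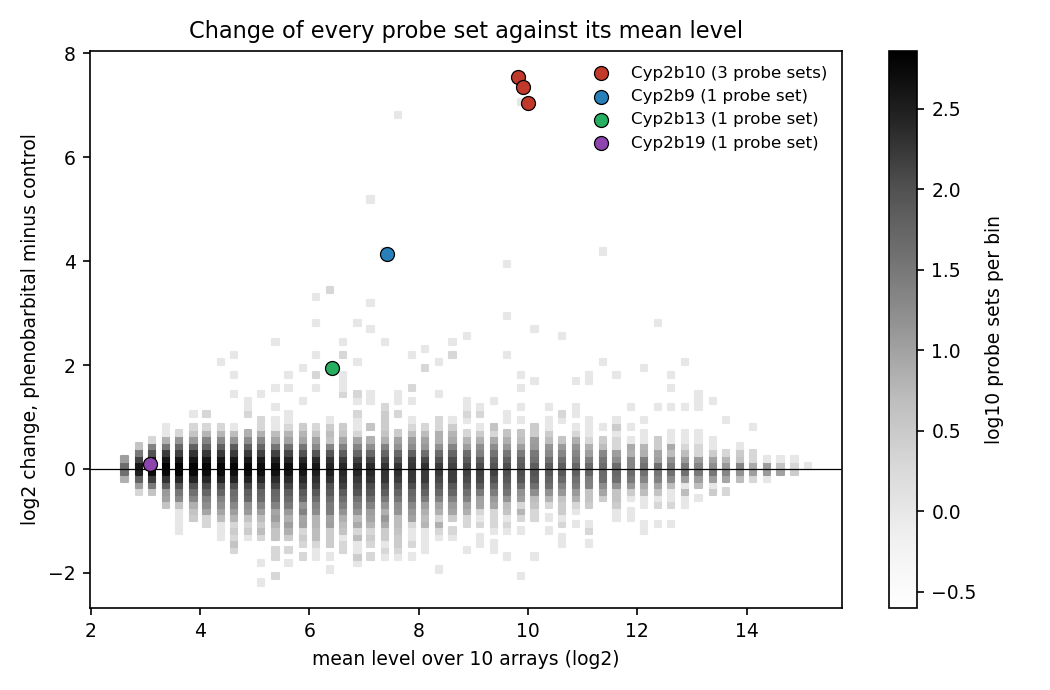
Log2 change (phenobarbital minus control) of all probe sets against their mean level over 10 arrays, shaded by the number of probe sets per bin, with the 6 Cyp2b probe sets in colour. The 3 Cyp2b10 points lie at the top, Cyp2b9 is at 4.14, Cyp2b13 at 1.94 and Cyp2b19 at 0.10.

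Cyp2b9 encodes a P450 that metabolises steroids and drugs and is female-biased in adult mouse liver. Probe set 1419590_at read 8.65, 9.95, 10.39, 9.18 and 9.25 in phenobarbital replicates 1 to 5, against 5.79, 5.48, 5.04, 4.22 and 6.20 in control replicates 1 to 5. Every treated liver was above every control, by at least 2.45, and the means were 9.48 ± 0.69 in phenobarbital livers and 5.35 ± 0.76 in controls (SD, n = 5 each). The log2 change was 4.14 ± 0.37 (SE), a 17.6-fold rise (95% interval 10.2 to 30.4, limma adjusted p = 3.16e-05), the seventh largest rise of all probe sets. Within the low spike-in set it was 5.26 ± 0.52 (limma adjusted p = 0.000652). Control replicate 4, the control in that set, had the lowest Cyp2b9 value of all controls.

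Cyp2b13, the near relative of Cyp2b9, is likewise female-biased. Probe set 1449479_at read 6.79, 7.86, 8.53, 6.35 and 7.36 in phenobarbital replicates 1 to 5, against 5.19, 5.28, 5.27, 5.89 and 5.57 in control replicates 1 to 5. The means were 7.38 ± 0.86 in phenobarbital livers and 5.44 ± 0.29 in controls (SD, n = 5 each). The groups did not overlap, but the lowest treated liver, replicate 4, was only 0.46 above the highest control. The log2 change was 1.94 ± 0.33 (SE), or 3.83-fold (95% interval 2.35 to 6.24, limma adjusted p = 0.00312), which ranked 40 among the rises. Within the low spike-in set it was 1.49 ± 0.56 and did not pass (limma adjusted p = 0.308). Control replicate 4 was the control with the highest Cyp2b13 value and the lowest Cyp2b9 value.

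Phenobarbital replicate 3 had the highest value of both Cyp2b9 and Cyp2b13, replicate 2 came next in both, and replicates 1 and 4 were the lowest in both. The level of Cyp2b9 less that of Cyp2b13 was 1.86 to 2.83 in phenobarbital livers, against -1.67 to 0.63 in controls. In 4 of the 5 treated livers it lay between 1.86 and 2.09. Whether the probes of 1 gene also bind the transcript of the other was not tested.

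Cyp2b19 encodes an epoxygenase of arachidonic acid known from mouse skin. Probe set 1419731_at read 3.14, 3.13, 3.13, 3.10 and 3.13 in phenobarbital replicates 1 to 5, against 2.75, 2.99, 3.23, 3.10 and 3.08 in control replicates 1 to 5. All 10 values lay below the lower quartile of their array, so the transcript was not shown to be above background in either group, and the groups overlapped. The log2 change was 0.10 ± 0.08 (SE, 95% interval -0.08 to 0.27, limma adjusted p = 0.445), and 0.03 within the low spike-in set (limma adjusted p = 0.968). No rise out of that level was seen, and a change that stayed below background would not have been detectable.

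Cyp2b10, Cyp2b9 and Cyp2b13 differed from each other in the size of their change. For each pair, the within-array difference of their levels was compared between the groups by an exact two-sided permutation test over the 10 arrays, with 1451787_at standing for Cyp2b10. Cyp2b10 less Cyp2b9 was 4.04 ± 0.68 in phenobarbital livers and 1.12 ± 0.58 in controls (SD, n = 5 each), so Cyp2b10 rose by 2.92 more on the log2 scale, a 7.55-fold larger change. Cyp2b10 less Cyp2b13 was 6.14 ± 0.86 in phenobarbital livers and 1.03 ± 0.82 in controls, a difference in log2 change of 5.12. Cyp2b9 less Cyp2b13 was 2.11 ± 0.42 in phenobarbital livers and -0.09 ± 0.95 in controls, a difference of 2.20. Each of these 3 pairs gave an exact permutation p of 0.00794, the smallest that 5 against 5 arrays allow, and 0.00794 after Benjamini-Hochberg adjustment over the 6 pairs computed. They share members, so they are not independent results. In controls Cyp2b9 lay below the array median on 2 arrays and Cyp2b13 on 3, and neither lay below the lower quartile of any. Whether signal was proportional to RNA at these levels was not tested, so the ratios of change may be off. Within the low spike-in set, where 1 control array leaves no test, the differences were 2.31 for Cyp2b10 less Cyp2b9, 6.08 for Cyp2b10 less Cyp2b13 and 3.78 for Cyp2b9 less Cyp2b13. The other 3 pairs set a member against Cyp2b19, whose probe set was at the bottom of the scale in both groups, and are not read as differences in response.

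The Cyp2b genes lie on chromosome 7 in a cluster of 13 protein-coding Cyp2 genes from Cyp2s1 to Cyp2t4, in the gene order of GRCm38.p6. Cyp2b10, Cyp2b13 and Cyp2b9 follow each other at one side, and Cyp2b23 and Cyp2b19 lie farther on, beyond Cyp2a4. Among the other Cyp2 genes of the cluster, Cyp2g1, a P450 of olfactory tissue that neighbours Cyp2b19, rose. It read 7.31, 7.59, 7.55, 7.34 and 7.11 in phenobarbital replicates 1 to 5, against 6.23, 5.43, 6.03, 6.02 and 6.09 in control replicates 1 to 5. Its log2 change was 1.42 ± 0.14 (SE, limma adjusted p = 7.93e-05), and 1.36 within the low spike-in set (limma adjusted p = 0.0424). The other measured Cyp2 neighbours were not called: the log2 change was -0.05 for Cyp2s1, 0.18 for Cyp2a12 and 0.10 for Cyp2f2 (limma adjusted p = 0.808, 0.0522 and 0.36). Of all 12 measured neighbours in the list, P450 or not, 1 was called higher and none lower, a share near that of all genes, of which 8.23% were called higher. The count stayed 1 under 10 of 18 alternatives. It was 2 without control replicate 4 or 5, after quantile normalisation or median centring, and with weights per array. Brighter probe sets alone, 1 probe set per gene, and trend with robust variance also gave 2.

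**Figure D3:**
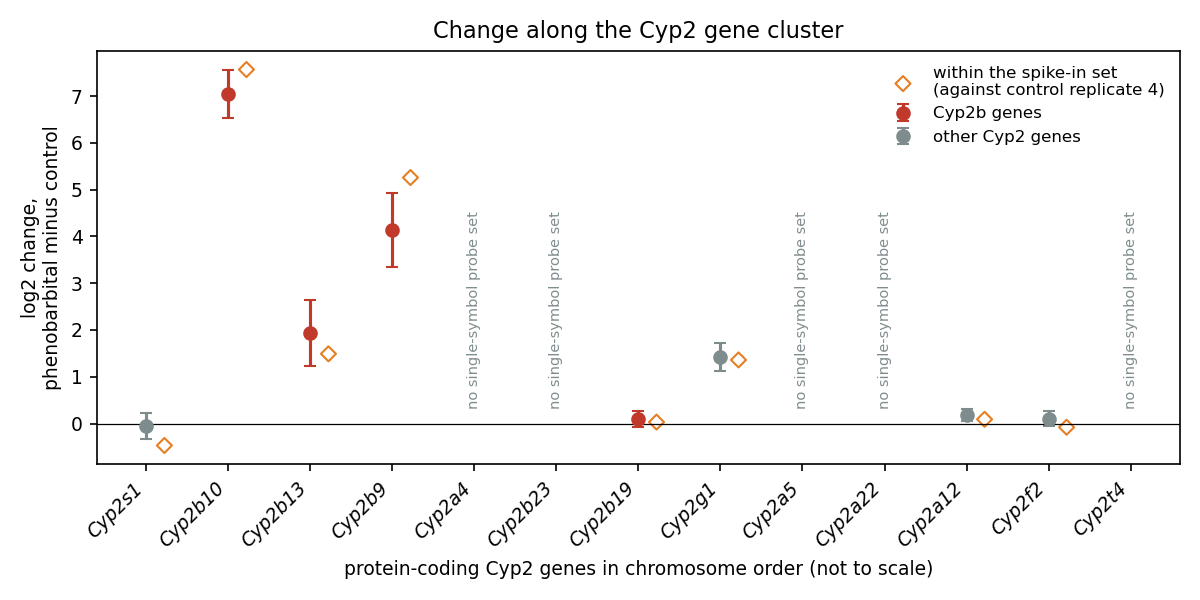
Log2 change (phenobarbital minus control) with its 95% interval for the protein-coding Cyp2 genes in chromosome order, Cyp2b in red and the others in grey, with open diamonds for the value within the low spike-in set. Cyp2b10 is at 7.05, Cyp2b13 at 1.94, Cyp2b9 at 4.14 and Cyp2g1 at 1.42, and 5 genes have no probe set with a single symbol.

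Genes that act with Cyp2b were counted in lists of known roles, with each gene read on its brightest probe set. Over all 18193 genes counted so, 10.5% were called lower and 8.23% higher, with a median log2 change of 0.01. CAR itself was not called: Nr1i3 averaged 9.20 ± 0.17 in phenobarbital livers and 9.46 ± 0.17 in controls (SD, n = 5 each), a log2 change of -0.26 ± 0.10 (SE, limma adjusted p = 0.0858), and -0.45 within the low spike-in set (limma adjusted p = 0.288). The pregnane X receptor gene Nr1i2, a related drug sensor, averaged 8.36 ± 0.11 in phenobarbital livers and 8.22 ± 0.12 in controls, a log2 change of 0.14 (limma adjusted p = 0.236), and 0.18 within the low spike-in set (limma adjusted p = 0.654). Of 22 measured genes of CAR, the pregnane X receptor and their activation partners, 3 were called higher and 5 lower, with a median of 0.01. The coactivator Ppargc1a fell by 1.42 on the log2 scale. The stress-inducible Gadd45b rose by 1.28, the autophagy adaptor Sqstm1 by 0.53 and the chaperone Hsp90aa1 by 0.48. Over all their probe sets, 5 of 5 were called for Ppargc1a, 3 of 3 for Gadd45b, 1 of 2 for Sqstm1 and 3 of 5 for Hsp90aa1. Gadd45b was also called within the low spike-in set (1.81, limma adjusted p = 0.0112). There the log2 change was -0.92 for Ppargc1a, 0.17 for Sqstm1 and 0.27 for Hsp90aa1, none of them called. The 8 calls became 5 after quantile normalisation, 5 without phenobarbital replicate 2 or control replicate 1, and 1 within the low spike-in set.

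Among genes of P450 electron transfer and haem turnover, 3 of 15 measured were called higher and 1 lower. The shares over all genes were 8.23% higher and 10.5% lower, and the median log2 change of the 15 was 0.14. Por, a listed gene of electron transfer, had no probe set of a single symbol and is not among the 15. Alas1, which makes the committed step of haem synthesis, averaged 11.86 ± 0.78 in phenobarbital livers and 9.33 ± 0.79 in controls (SD, n = 5 each), and control replicate 4 read 10.72 against 8.78 to 9.14 in the other controls. Its log2 change was 2.53 ± 0.40 (SE, limma adjusted p = 0.00226), and 1.14 within the low spike-in set, where it was not called (limma adjusted p = 0.393). Control replicate 4 thus had a high Alas1 value with a Cyp2b10 value inside the range of the other controls. Cyb5r3, which reduces cytochrome b5, rose by 0.31, with 3 of its 4 probe sets called. The biliverdin reductase Blvrb rose by 0.28, and the haem synthesis enzyme Cpox fell by 0.57. Their log2 changes within the low spike-in set were 0.24 for Cyb5r3, 0.03 for Blvrb and -0.19 for Cpox, and none of the 15 was called.

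Of 29 measured genes known or reported as CAR targets outside Cyp2b, 24 were called higher and none lower. The shares over all genes were 8.23% and 10.5%, and the median log2 change of the 29 was 0.65. Those not called were Abcc2 (-0.09), Myc (-0.21), Cyp3a11 (0.15), Ccnd1 (0.28) and Slco1a4 (0.32), named after their values were seen. For Ccnd1, 1 of 3 probe sets was called, though not the brightest. Among the 24 called, Mdm2 had 1 of 3 probe sets called. Sult1e1, also among the 24, read 3.93 to 4.25 in phenobarbital livers and 3.47 to 4.00 in controls. Its groups overlapped, and these values lay near or below the lower quartiles of the arrays (4.13 to 4.20). Both were named after their values were seen. Some of the 29 genes were listed with their rise in these livers already known, so the count is a description. The largest rises were those of the P450s Cyp2c65 (6.86) and Cyp2c55 (4.15) and the glutathione transferases Gstm3 (2.78) and Gstt3 (2.71), on the log2 scale. Within the low spike-in set 13 of the 29 were called higher, these 4 among them, against 0.401% of genes.

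Lists of sex-biased liver genes were counted because Cyp2b9 and Cyp2b13 belong to the female-biased ones. Of 10 measured female-biased genes outside Cyp2b, 4 were called higher and 2 lower, against 8.23% and 10.5% of all genes. The median log2 change of the 10 was 0.15. Cyp3a16, named after its values were seen, was among those called higher. It read 3.03 to 3.35 in phenobarbital livers and 2.78 to 2.96 in controls. Like Cyp2b19 it lay below the lower quartile of every array, so it was not shown to be above background. With brighter probe sets alone, 3 of 6 female-biased genes were called. Prom1, a membrane glycoprotein, rose by 2.44, the sulphotransferase Sult3a1 by 1.42 and the P450 Cyp3a44 by 0.50, and the fatty acid hydroxylase Cyp4a14 fell by 1.77. Prom1 was called within the low spike-in set (2.68, limma adjusted p = 0.00808). There the log2 change was 1.84 for Sult3a1, 0.71 for Cyp3a44 and -0.13 for Cyp4a14, none of them called. Sult3a1 was also counted among the CAR targets. Its controls read 3.50 to 4.44, near the lower quartiles, and its lowest phenobarbital value was 0.05 above the highest control. Cyp4a14 read 9.83 in control replicate 2 against 6.01 to 7.81 in the other controls. Of 11 measured male-biased genes, 1 was called higher and 2 lower, with a median of -0.01. The oxysterol hydroxylase Cyp7b1 fell by 0.50 and the uptake carrier Slco1a1 by 0.49, and the P450 Cyp4a12a rose by 0.26. For Cyp7b1, 2 of 3 probe sets were called. In the low spike-in set the log2 changes were -0.68 for Cyp7b1, -0.38 for Slco1a1 and 0.10 for Cyp4a12a, none of them called, and the count of 3 became 1 without phenobarbital replicate 2.

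**Figure D4:**
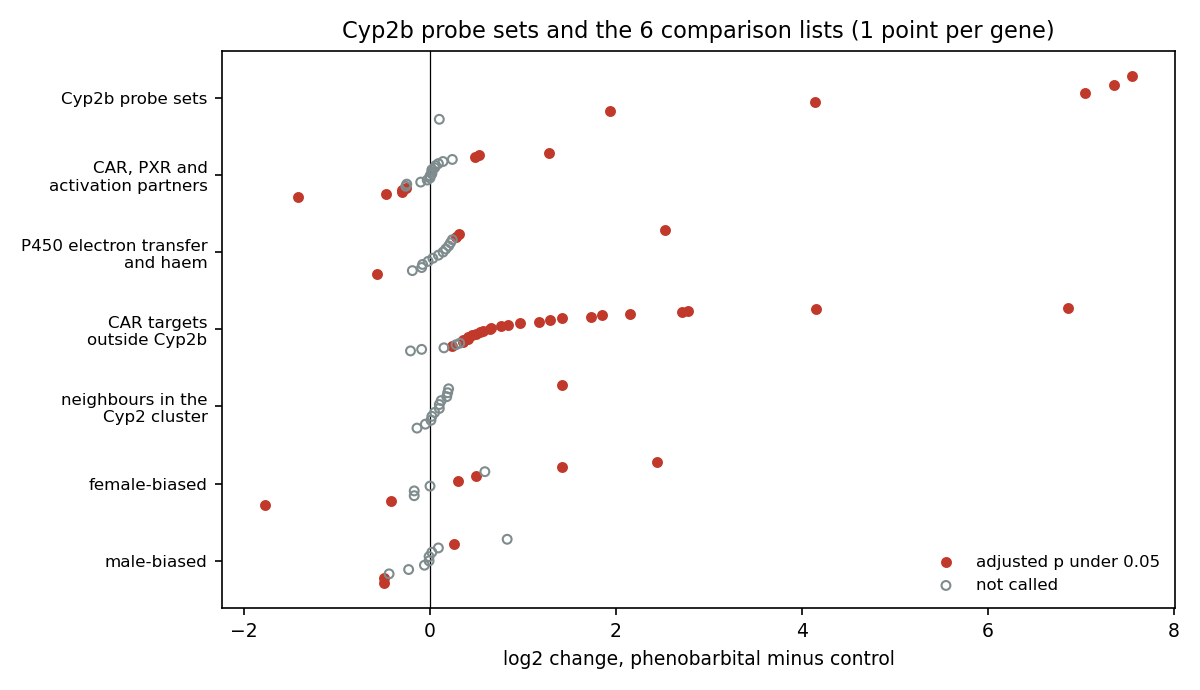
Log2 change (phenobarbital minus control) of the 6 Cyp2b probe sets and of each measured gene in the 6 lists, filled where the adjusted p was under 0.05. Of the CAR targets outside Cyp2b 24 of 29 are filled, all of them to the right of 0, and open points lie on both sides.

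The genes whose pattern was most like that of Cyp2b10 were found by the mean absolute difference, over the 10 arrays, between log2 profiles that had each been set to 0 at the control mean. Cyp2c65 was nearest, at 0.39. It read 11.01, 10.98, 10.82, 10.92 and 11.18 in phenobarbital replicates 1 to 5, against 4.31, 3.88, 4.19, 4.06 and 4.16 in control replicates 1 to 5. Its rise of 6.86 was close in size to that of Cyp2b10 on 1451787_at, while its controls were more even (SD 0.16, against 0.66 for Cyp2b10). Those controls lay at 3.88 to 4.31, near the lower quartiles of the control arrays (4.13 to 4.20), while Cyp2b10 lay above the lower quartile. Whether they were above background was not tested, so neither their evenness nor the size of the rise is firm. The probe set of Cyp2c65 has the suffix of probes that can match related transcripts. Cyp2c55 followed at 1.62, then Nebl, which encodes an actin-binding protein, at 2.13, Pnliprp1, a pancreatic lipase relative, at 2.21 and Gm10419 at 2.22. The log2 changes of the last 3 were 3.42, 3.27 and 3.43. All 5 were called, but their choice by likeness to so large a rise made this all but certain, so it is not a separate result. Within the low spike-in set the log2 changes of the 5, in the same order, were 6.92, 3.99, 3.4, 2.97 and 3.21.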

How the data were processed

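RNA from 0.1 µg of total liver RNA per mouse was labelled with a 3′ in vitro transcription kit and hybridised to Affymetrix arrays, per the labels' protocols. The authors deposited 1 log2 value per probe set and array; GCOS is named, without a version, per the submitters' processing notes. The summarisation and normalisation are not given in the sources used here, and the log2 scale was read from the range of the values (2.34 to 15.13). The values were used as deposited, because the quartiles of the 10 arrays lay within 0.15 of each other. Treatment groups and animal numbers are those of the labels, with 5 animals per group, and no arrays were duplicates (highest correlation 0.9967). The number of arrays limits the precision.

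Probe sets were named from the platform annotation: of 45101, 64 were controls, 34945 had 1 symbol, 932 had several and 9160 had none. The groups were fitted with limma 3.58.1 under R 4.3.3 (lmFit, eBayes, 95% intervals, two-sided, Benjamini-Hochberg over 45037 probe sets, adjusted p under 0.05). Pair differences used exact permutation in scipy 1.17.1. Figures were drawn with matplotlib 3.10.9. Promoter windows came from RefSeq (GRCm38.p6), matched for all 5 genes by symbol, and were aligned globally with Biopython 1.88 (match 1, mismatch -1, gap opening -3, extension -1).

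The genes named by rule were the members and up to 4 called genes per list with the largest change. Nr1i3, Nr1i2 and Alas1, and the 5 most like Cyp2b10, were named by rule too. Por was to be named as well but had no probe set of a single symbol. Cyp2 neighbours are named for their position, and other list genes were named after their values were seen. The members and lists were chosen with earlier results of these data known. List genes with no probe set of a single symbol are not analysed here. Same-numbered animals were not paired: the correlation of their deviations from the group means was -0.066 to 0.17. In 5 simulated comparisons of 5 against 5 over 45037 probe sets, 200 were changed. Calls reached 98.8% of the changes set at 4-fold, 95.2% of those at 2-fold and 63.0% of those at 1.4-fold, beside 6.4 false calls per comparison. The simulated arrays had independent noise and no spike-in sets, so these shares need not hold for the real arrays. Alternatives were quantile normalisation, median centring, brighter probe sets alone, 1 probe set per gene, limma's trend with robust variance, weights per array, a replicate block, a spike-in set block, and the omission of each animal in turn. P-values measure the spread between these animals and their arrays alone, and those of limma also draw on the spread of all probe sets.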

Additional observations from a re-analysis of the deposited data

Results flagged for a closer look

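The 62 groups of 5 values were those of the 6 Cyp2b probe sets and of the other genes named by rule, in each treatment group. Of these, 5 held an animal far from the other 4, where chance alone gives about 1 in 20 such groups. Among the Cyp2b probe sets, Cyp2b19 read 3.10 in phenobarbital replicate 4, against 3.13 to 3.14 in the other phenobarbital livers, a gap of 0.03 at the bottom of the scale. Control replicate 4 stood apart in 2 genes: Alas1 was 10.72 there, against 8.78 to 9.14 in the other controls, and Gadd45b was 6.50, against 7.10 to 7.29. Cyp2c55 was 8.60 in control replicate 3, the animal with the lowest Cyp2b10 value, against 9.39 to 9.69 in the other controls. Cyp2g1 was 5.43 in control replicate 2, against 6.02 to 6.23. The cause of these values was not tested.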

How the results depend on the processing

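Of the 6 Cyp2b probe sets, 5 were called higher under each alternative that tested all 6, except in the fit that held the spike-in set fixed, where Cyp2b13 lost its call (log2 change 1.49, limma adjusted p = 0.308) and 4 were called. All 5 stayed called when any 1 animal was omitted. Over all alternatives the log2 change was 6.84 to 7.57 for 1451787_at, 3.86 to 5.26 for Cyp2b9 and 1.49 to 2.19 for Cyp2b13. The 3 differences among Cyp2b10, Cyp2b9 and Cyp2b13 passed under each of 14 alternatives, most of which could not have changed this. Median centring cancels in a difference within an array, and groups that do not overlap stay apart when any 1 animal is omitted. The spike-in set was not among the 14 alternatives. Within its low part, a comparison chosen after seeing the data, the 3 differences were 2.31, 6.08 and 3.78 with no test. With 1 probe set per gene 3 of 4 members were called, since Cyp2b10 then counted once, and 3692 of 18193 genes were called, since fewer were tested. Over all probe sets 8425 were called. The count was 175 with the spike-in set held fixed, and it ran between 5309, without phenobarbital replicate 2, and 10879, without control replicate 4. In the 6 lists 45 of 98 genes were called, 16 with the spike-in set held fixed and 37 to 47 when 1 animal was omitted. The cause was not tested. The share of calls that were higher was 41.1%, against 52.5% after quantile normalisation and 55.1% after median centring. With the replicate block 8241 probe sets were called, 5 of them Cyp2b, and no call of a Cyp2b probe set changed. The low signal of Cyp2b19 limits what can be said of it.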
